A study of Zea mays with 4 samples.

Results

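The probe sets bright only in F98908 are those whose mean log2 value was over 8 on the 2 F98908 arrays and under 4 on the 2 Cm489 arrays. Probe sets of rpl30, HRGP and expB5 were left out (4 probe sets of 3 genes). The rule found 64 of the 17621 maize array probe sets that are not labelled AFFX, which is 0.363%, and 0.948% of the 6752 probe sets over log2 8 in F98908. With no gene left out the limits gave 68 probe sets bright only in F98908, and turned round they gave 50 bright only in Cm489. The members were chosen by the log2 line means, so their levels and the difference between the lines are given as a description, with no test.

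F98908 and Cm489 are maize (Zea mays) lines, each represented by 2 arrays of total RNA, in a study of cell wall diversity and digestibility. The extract labels of both F98908 arrays read 213 ug and name the first sample. Those of the Cm489 arrays read 177 and 170 ug. For both lines the labels give aerial material of plants aged 21 days with 7 leaves, a cycle of 16 h light and 8 h dark, and 50% humidity. No mutation, transgene or treatment is given for either line. Whether the 2 arrays of a line hold RNA of different plants is not stated, so the spread between them may be technical.

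On this type of array a probe set is a group of short oligonucleotides for 1 target sequence, and its value is a summary of their brightness. Maize lines are known to differ widely in sequence and in gene content as well as in transcript levels. A low value can therefore come from little transcript or from a transcript that pairs poorly with the probes, and these cannot be told apart in the values used here. Likewise, fewer cells of a type and less RNA per cell cannot be told apart in whole shoot material. Many maize genes belong to families with near-identical copies, and a probe set can then read more than 1 copy.

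The arrays had near-equal distributions, with medians between 6.64 and 6.66 on the log2 scale. Over all probe sets tested, the median absolute difference between the 2 arrays of a line was 0.131 in F98908 and 0.206 in Cm489. The table also holds 66 probe sets labelled RPTR, a prefix for reporter sequences, of which 65 lay between 1.53 and 3.44 on every array, and the other between 14.5 and 14.6. The values of the 65 dim ones give the level of probe sets for sequences that a plant without reporters should lack.

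The members formed a dense group just over the F98908 limit with a sparse bright tail. In F98908 their means ran from 8.00 to 13.37 with a median of 8.84, and in Cm489 from 1.64 to 3.97 with a median of 2.66. Of the 64, 39 had an F98908 mean between 8 and 9, 15 between 9 and 10, 3 between 10 and 11, and 7 over 11. The Cm489 means were mostly between 2 and 3, in 38 members, with 22 between 3 and 4 and 4 under 2. The difference F98908 minus Cm489 ran from 4.42 to 10.85 log2 units with a median of 6.20. Values under log2 4 have no reliable order, so a fold is given as a lower bound, the F98908 mean against log2 4. On that scale the members were at least 16.0-fold to at least 662-fold higher in F98908, with a median bound of 28.7-fold.

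**Figure D1:**
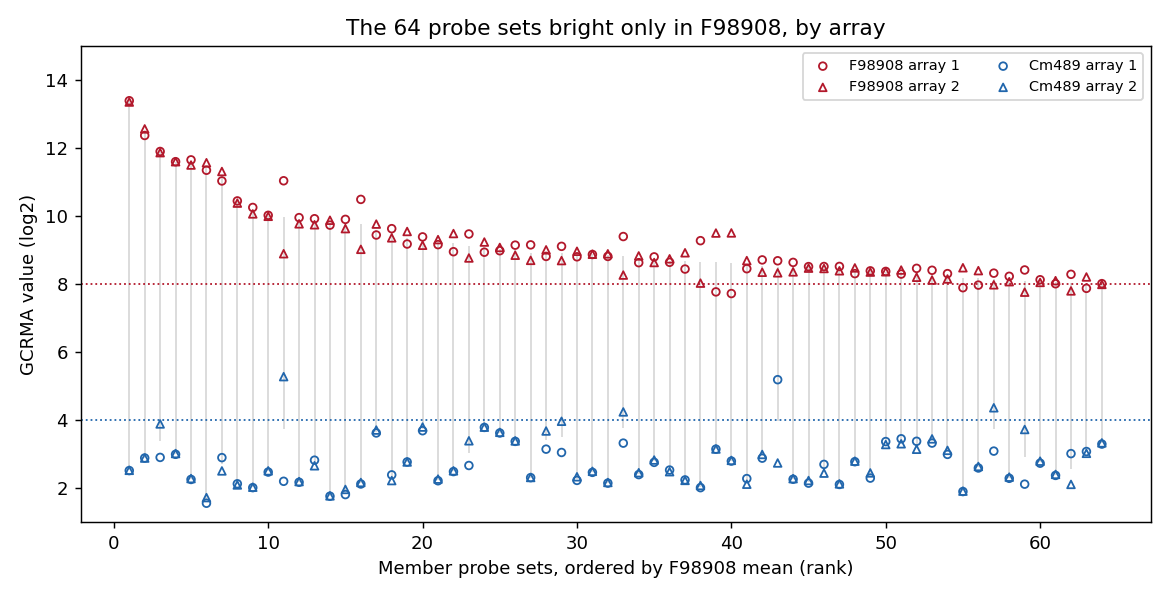
Each position on the horizontal axis is 1 of the 64 members, ordered by F98908 mean, and the vertical axis is the GCRMA value on the log2 scale. Circles are array 1 and triangles array 2, red for F98908 and blue for Cm489, the grey lines join the line means and the dotted lines are the limits at 8 and 4. The F98908 values reach 13.39 at the left and crowd near 8 on the right, and single Cm489 values up to 5.28 lie over the limit of 4.

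The brightest member in F98908 was Zm.14513.6.A1_a_at, named here by its probe set ID because the platform annotation gives no gene. Its values were 13.39 and 13.35 on the F98908 arrays, against 2.52 and 2.53 on the Cm489 arrays. Both F98908 values lie far over both Cm489 values. Probe sets report their targets with unlike brightness, so the order of the members by F98908 mean is an order of array values and not of transcript amounts. The bound on its difference was 662-fold.

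Zm.5377.1.A1_at followed with 12.37 and 12.56 in F98908, against 2.89 and 2.89 in Cm489. Zm.3560.1.S1_at had 11.90 and 11.86 in F98908, against 2.91 and 3.89 in Cm489. Of the 5 brightest members it was the one whose Cm489 arrays stood apart, by 0.984 log2 units. Zm.15894.1.A1_at had 11.60 on both F98908 arrays, against 3.0 and 3.02 in Cm489, the smallest difference between F98908 arrays of any member (0.000674). Zm.16759.1.A1_at had 11.65 and 11.50 in F98908, against 2.26 and 2.28 in Cm489. The platform annotation names none of these 5.

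Zm.12387.1.S1_at had 11.35 and 11.57 in F98908, against 1.56 and 1.72 in Cm489. With it and Zm.13366.1.A1_a_at, which had 11.03 and 11.31 in F98908, against 2.90 and 2.51 in Cm489, the tail over log2 11 was complete. The next below were Zm.9832.1.A1_at with 10.44 and 10.38, Zm.7397.1.A1_at with 10.25 and 10.06 and Zm.2055.2.A1_a_at with 10.02 and 9.99 in F98908. In Cm489 their means were 2.11, 2.02 and 2.49.

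**Figure D2:**
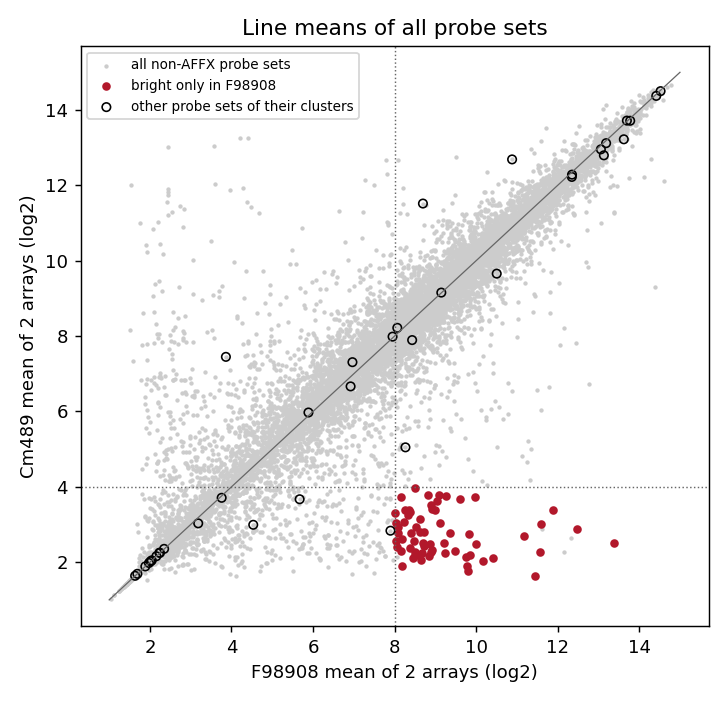
The horizontal axis is the mean of the 2 F98908 arrays and the vertical axis the mean of the 2 Cm489 arrays, both on the log2 scale, with equal levels on the diagonal. Grey points are all 17621 probe sets, red points the 64 members and open circles the 37 other probe sets of the members' sequence clusters. The members fill the area right of 8 and below 4 that the rule set, and most of the open circles lie on the diagonal.

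Only 2 members have a gene symbol in the platform annotation, 3.13% of them against 8.24% of all probe sets (1452 of 17621), and the other 62 are unnamed here. The rule left out 4 probe sets of 3 named genes that met the limits. This lowers the members' share, so nothing is read from the 2 shares. One of the 2 named members is expa2 (LOC542648), read by Zm.14498.1.A1_at. Alpha-expansins are secreted proteins that loosen the cell wall and let growing cells extend. The values for expa2 were 8.69 and 8.33 in F98908, against 5.19 and 2.74 in Cm489. The F98908 arrays differed by 0.354 log2 units and the Cm489 arrays by 2.45, and Cm489 array 1 lay over the limit of 4. With its mean of 3.97 ± 1.73 (SD, n = 2 arrays), this probe set was the member nearest to the Cm489 limit.

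The other is LOC542088, a locus listed in RefSeq as GRMZM2G128268 with no gene name, read by Zm.10845.1.A1_at. It had 8.46 and 8.20 in F98908, against 3.38 and 3.14 in Cm489, and was at least 20.1-fold higher in F98908. The platform annotation gives no other probe set for either gene.

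Near the Cm489 limit, expa2 was followed inside by Zm.15683.1.A1_at (9.09 in F98908, 3.79 in Cm489) and Zm.889.2.S1_at (8.83 in F98908, 3.78 in Cm489). Just outside it were Zm.12398.1.S1_at (8.25 in F98908, 4.02 in Cm489), Zm.1250.1.S1_at (10.28 in F98908, 4.05 in Cm489) and Zm.823.1.S1_at (10.14 in F98908, 4.14 in Cm489). At the F98908 limit, the members just inside were Zm.13642.1.S1_at with a mean of 8.00, Zm.7644.2.S1_x_at with 8.04 and Zm.9237.1.A1_at with 8.04. The probe sets just outside were Zm.2773.1.A1_at with 7.96, Zm.6598.1.A1_at with 7.96 and Zm.10338.1.S1_at with 7.94 in F98908. Levels run on without a gap across both limits. With limits of 3 and 9 the rule gave 17 probe sets, and with 5 and 7 it gave 161.

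The lines were compared over all probe sets with limma, where a probe set was tested if over log2 4 on at least 2 arrays. Limma called 62 of the 64 members higher in F98908 at an adjusted p under 0.05, where 7.27% of the 11263 probe sets tested were called in that direction. All 64 were tested, but each passed the filter through the F98908 arrays where the rule made it bright, and the rule used the same contrast, so nothing is read from this count. The 2 members not called were expa2 and Zm.17547.1.S1_at, the pair with the largest differences between Cm489 arrays.

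The rule used line means and not differences within a line, and these varied widely among the members. Between the F98908 arrays the median absolute difference over the members was 0.210 log2 units, and it was 0.112 over the 6752 probe sets with an F98908 mean over 8. Differences over 1 log2 unit were seen in 6 members (9.38%) and in 46 of the 6752 (0.681%). The spread depends on the level, so members were also set beside probe sets of like level, a comparison added after seeing the data. Among the 32 members with an F98908 mean between 8.39 and 9.64, the quartiles of the members, the median was 0.274. It was 0.134 over all 2328 probe sets in that range. Of the 32, 4 members (12.5%) differed by over 1 log2 unit, against 24 of the 2328 (1.03%). Below that range 0 of 16 members did, against 1.45% of 759 probe sets. Above it 2 of 16 members did, against 0.300% of 3665.

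Between the Cm489 arrays the median over the members was 0.0548, and it was 0.0146 over the 6639 probe sets with a Cm489 mean under 4. Among the 32 members with a Cm489 mean between 2.27 and 3.28 the median was 0.0508, against 0.0307 over all 2163 probe sets in that range. Differences over 0.5 log2 units between the Cm489 arrays occurred in 10 of the 64 members. Of these, 3 lay in that range (9.38% of the 32 members, against 5.27% of the 2163), and 7 lay above it, where 16 members (43.8% over 0.5) can be set beside 497 probe sets (29.4% over 0.5). In that upper range the median was 0.135 over the members and 0.230 over all, so the order of the 2 measures differed there. All these values describe single pairs of arrays, with no test.

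**Figure D3:**
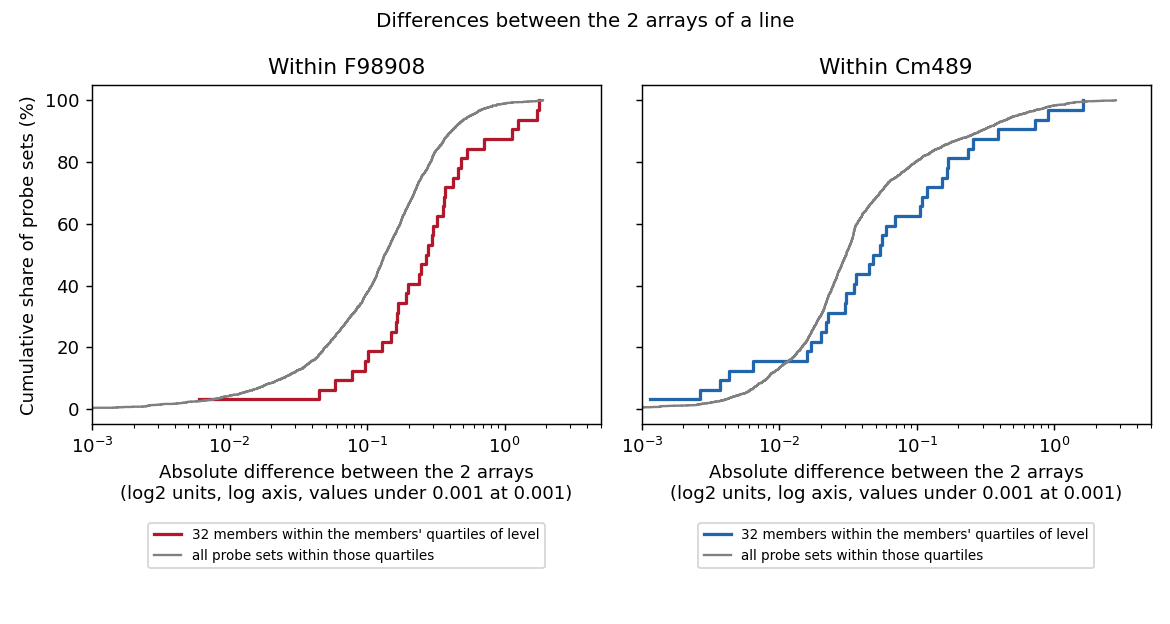
The horizontal axis is the absolute difference between the 2 arrays of a line in log2 units on a log axis, and the vertical axis the cumulative share of probe sets in percent, for F98908 on the left and Cm489 on the right. Coloured lines are the 32 members whose level in that line lies within the members' quartiles, and grey lines all probe sets in the same range. Through most of the range the members' lines run right of the grey ones, with medians of 0.274 against 0.134 in F98908 and 0.0508 against 0.0307 in Cm489.

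Zm.17547.1.S1_at differed most within both lines. It had 11.04 and 8.89 in F98908, against 2.20 and 5.28 in Cm489. Its highest F98908 value thus fell on array 1 and its highest Cm489 value on array 2.

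In 4 further members the F98908 arrays differed by over 1 log2 unit while the Cm489 arrays differed by less than 0.1. Zm.7835.1.A1_at had 7.72 and 9.50 in F98908, against 2.80 and 2.82 in Cm489. Zm.6506.1.A1_a_at had 7.77 and 9.50 in F98908, against 3.15 and 3.15 in Cm489. In both, F98908 array 2 was the brighter. The other way round, Zm.2707.1.S1_at had 10.49 and 9.02 in F98908, against 2.12 and 2.17 in Cm489, and Zm.11055.1.A1_at had 9.28 and 8.03 in F98908, against 2.02 and 2.08 in Cm489. The sixth with over 1 log2 unit was Zm.889.2.S1_at, with 9.40 and 8.26. Array 1 of F98908 was the brighter in 38 of the 64 members (59.4%). It was the brighter in 50.6% of the 6752 probe sets with an F98908 mean over 8, and in 48.2% of the 2328 within the members' quartiles of level. At the other end, after Zm.15894.1.A1_at, the F98908 arrays were closest in Zm.8278.1.A1_at (8.87 and 8.88), Zm.9595.1.A1_at (8.37 and 8.36), Zm.13642.1.S1_at (8.01 and 7.99) and Zm.2055.2.A1_a_at.

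In Cm489 the members after Zm.17547.1.S1_at and expa2 that differed most were Zm.3657.1.A1_s_at with 2.12 and 3.73, Zm.3204.1.S1_a_at with 3.09 and 4.36 and Zm.3560.1.S1_at. Array 2 was the higher in 8 of the 10 members whose Cm489 arrays differed by over 0.5, and expa2 and Zm.9237.1.A1_at had array 1 higher. In 7 of the 10, Cm489 array 2 and F98908 array 1 were the higher ones. The same share over all probe sets was not taken, so nothing is read from this count. Of all 64 members, 48 (75%) had Cm489 array 2 higher. So did 90.6% of the probe sets under log2 4 in Cm489, and 84.7% of the 2163 within the members' Cm489 quartiles of level. The part of the array in these differences was not tested.

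In 52 members every single array was past its limit. In 4 members 1 Cm489 array lay over 4, namely expa2, Zm.17547.1.S1_at, Zm.3204.1.S1_a_at and Zm.889.2.S1_at. In 9 members 1 F98908 array lay under 8, the lowest at 7.72. Without F98908 array 2 the rule kept 59 of the 64 and added 6, and without Cm489 array 2 it kept 63 and added 8.

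On this array the ID of a probe set starts with the number of the sequence cluster it was designed from, followed by a sub-number within the cluster, a letter (A or S) for the strand of the sequence and a suffix for the type of probe set. The 64 members come from 61 clusters. In 3 clusters 2 probe sets are members, and these share sequence and are not independent. Zm.3204.1.S1_a_at had 8.32 and 7.98 in F98908, against 3.09 and 4.36 in Cm489, and Zm.3204.1.S1_x_at had 9.11 and 8.69 in F98908, against 3.05 and 3.97 in Cm489. Zm.3657.1.A1_at had 9.47 and 8.77 in F98908, against 2.67 and 3.39 in Cm489, and Zm.3657.1.A1_s_at had 8.41 and 7.76 in F98908, against 2.12 and 3.73 in Cm489. In both clusters the paired probe sets had array 1 the brighter of F98908 and array 2 the higher of Cm489. Most of these Cm489 values lay under log2 4, where no order can be read. Array 2 was also the higher in 90.6% of all probe sets under log2 4 in Cm489, where the median absolute difference was 0.0146 log2 units. Within the members' Cm489 quartiles of level it was the higher in 84.7% of 2163 probe sets.

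Zm.9311.1.A1_a_at had 9.90 and 9.63 in F98908, against 1.81 and 1.96 in Cm489. Its partner of another sub-number, Zm.9311.2.A1_x_at, had 8.64 and 8.74 in F98908, against 2.53 and 2.49 in Cm489. In this pair the F98908 arrays differed by 0.272 and 0.102 log2 units, in opposite directions.

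Of the 61 clusters, 42 hold no probe set other than members, and 19 hold 37 others. Clusters with several probe sets made up 34.4% of the members' clusters and 19.8% of the 13339 clusters on the array. A cluster with several probe sets has more chances to hold a member, so nothing is read from these shares. The other probe sets had a median difference of -0.00050 log2 units, against -0.0062 over all probe sets, and 28 of 37 (75.7%) lay within 0.5 log2 units of 0, near the 77.9% of all probe sets. Leaving out those under log2 4 in both lines, it was 16 of 25, or 64%, against 67.7% of all. Of the 37, 15 were over log2 8 in both lines, 12 were under 4 in both, and 4 were between 4 and 8 in both.

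At least 1 log2 unit higher in F98908 were 4 of the 37 others, where 5.18% of all 17621 probe sets were, and 3 were at least 1 log2 unit lower, where 5.13% were. With values under log2 4 set to 4, an alternative added after seeing the data, the counts were 3 and 3, since Zm.10011.1.A1_s_at no longer reached 1 log2 unit. Of the 25 that could be tested, limma called 4 higher in F98908, where 7.27% of all tested were, and 3 lower, where 8.02% were. Of the 4 higher calls, Zm.4467.1.S1_a_at was called in 3 of its 12 alternative fits and Zm.10011.1.A1_s_at in 4 of 11. The contrast is the one the rule used, and other probe sets of a cluster may read the same transcript, so these counts are not read as support.

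**Figure D4:**
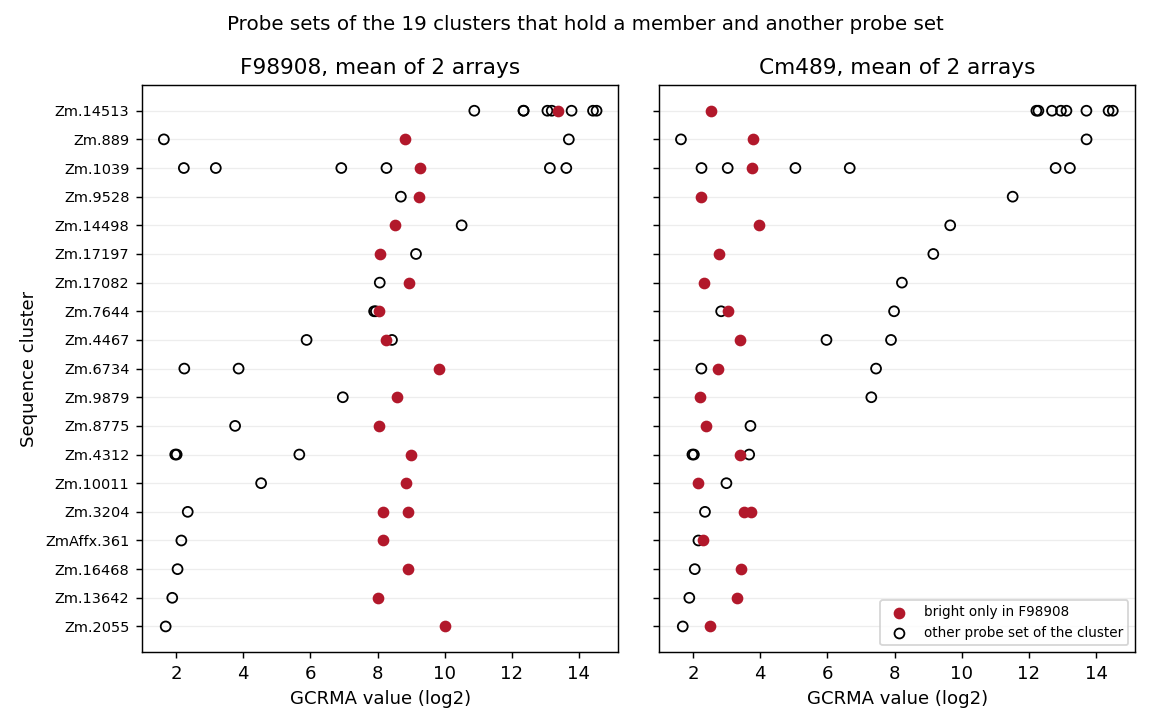
Rows are the 19 clusters that hold a member and another probe set, ordered by the brightest other probe set in Cm489, and the horizontal axis is the mean of the 2 arrays on the log2 scale, for F98908 on the left and Cm489 on the right. Red points are members and open circles the other probe sets. In the upper rows open circles are bright on both sides, up to 14.52 in F98908 and 14.50 in Cm489, while the red points lie over 8 on the left and under 4 on the right.

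In the largest of these clusters, Zm.14513, the member stood alone among bright probe sets. Its 8 other probe sets had means from 10.88 to 14.52 in F98908, against 12.22 to 14.50 in Cm489. Of the 8, 7 differed between the lines by at most 0.12 log2 units. The brightest, Zm.14513.2.A1_at, had 14.48 and 14.56 in F98908, against 14.65 and 14.35 in Cm489. The eighth, Zm.14513.9.S1_at, was lower in F98908, with 10.87 and 10.90, against 13.02 and 12.36 in Cm489. A bright target in both lines, a probe set bright only in F98908 and a probe set lower in F98908 thus occurred within 1 cluster.

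Bright partners in both lines were also found in Zm.889, Zm.1039, Zm.14498, Zm.17197 and Zm.17082. Zm.889.1.A1_s_at had 13.72 and 13.68 in F98908, against 13.67 and 13.77 in Cm489. It is of type s, whose probes can match more than 1 transcript. Beside it, the member Zm.889.2.S1_at had 9.40 and 8.26 in F98908, against 3.33 and 4.24 in Cm489. The remaining probe set of the cluster, Zm.889.3.S1_at, had means of 1.64 in F98908 and 1.64 in Cm489. Zm.17197.1.A1_at had 9.18 and 9.11 in F98908, against 9.11 and 9.20 in Cm489, beside the member Zm.17197.2.S1_at with 8.13 and 8.05 in F98908, against 2.74 and 2.80 in Cm489. The arrays of Zm.889.1.A1_s_at and Zm.17197.1.A1_at overlapped between the lines. Those of the members did not, but the rule chose members with line means far apart, so nothing is read from this.

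In the cluster of expa2, the other probe set Zm.14498.2.A1_at, unnamed here, had 10.58 and 10.43 in F98908, against 10.01 and 9.30 in Cm489. The difference was 0.849 log2 units, and limma did not call it (adjusted p 0.137). The 2 arrays of each line did not overlap. The share of all probe sets without overlap was not taken, so nothing is read from this. On both probe sets of the cluster Cm489 array 1 was the higher Cm489 array.

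In the clusters Zm.1039 and Zm.17082, a member had bright partners of its own sub-number and letter. These partners are of types a, x and s, whose probes can match more than 1 transcript. Their values may therefore include other transcripts, which was not tested. The member Zm.1039.1.A1_at had 9.39 and 9.14 in F98908, against 3.69 and 3.80 in Cm489. Zm.1039.1.A1_a_at, of the same sub-number and letter, had 13.68 and 13.57 in F98908, against 13.34 and 13.11 in Cm489. Another of that sub-number and letter, Zm.1039.1.A1_x_at, had 13.20 and 13.07 in F98908, against 12.77 and 12.82 in Cm489. Both partners were bright in both lines and differed by 0.40 and 0.34 log2 units. The further probe set Zm.1039.3.A1_a_at was also higher in F98908, with 8.19 and 8.34 in F98908, against 5.04 and 5.05 in Cm489.

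The member Zm.17082.1.S1_at had 9.15 and 8.70 in F98908, against 2.31 and 2.32 in Cm489, while Zm.17082.1.S1_s_at had 8.12 and 8.01 in F98908, against 8.09 and 8.35 in Cm489. For the s type the arrays of the lines overlapped. The remaining 2 others with a member's sub-number and letter differed in the member's direction. Zm.7644.2.S1_at had 7.88 and 7.91 in F98908, against 2.87 and 2.80 in Cm489, a difference of 5.06 that was the largest of the 37. Zm.10011.1.A1_s_at had 4.20 and 4.86 in F98908, against 3.0 and 2.99 in Cm489, beside the member Zm.10011.1.A1_at with 8.81 and 8.89 in F98908, against 2.15 and 2.17 in Cm489.

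Besides Zm.14513, a partner ran opposite to the member by at least 1 log2 unit in 2 clusters, Zm.9528 and Zm.6734. The member Zm.9528.2.A1_at had 9.16 and 9.31 in F98908, against 2.22 and 2.27 in Cm489, and its partner Zm.9528.1.A1_at had 9.02 and 8.37 in F98908, against 11.64 and 11.39 in Cm489. The partner was thus 2.82 log2 units lower in F98908 and bright in both lines. The member Zm.6734.1.S1_a_at had 9.92 and 9.74 in F98908, against 2.82 and 2.66 in Cm489, and its partner Zm.6734.2.S1_x_at had 3.92 and 3.80 in F98908, against 7.41 and 7.49 in Cm489. There the low line of the partner was the bright line of the member.

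Smaller differences were seen in the other clusters. Zm.4467.1.S1_a_at had 8.38 and 8.49 in F98908, against 7.89 and 7.90 in Cm489, and Zm.9879.2.S1_at had 6.80 and 7.13 in F98908, against 7.35 and 7.27 in Cm489. Zm.7644.1.A1_at had 7.93 and 7.97 in F98908, against 7.93 and 8.04 in Cm489. Zm.4312.3.S1_at had 5.98 and 5.36 in F98908, against 2.81 and 4.53 in Cm489, with a mean 2.0 log2 units higher in F98908. Limma did not call this difference (adjusted p 0.141).

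Probe sets of the opposite letter on a member's own sub-number stayed dim in both lines. There were 4 of these, and all were under log2 4 on every array. Zm.13642.1.A1_at had 1.89 and 1.89 in F98908, against 1.88 and 1.89 in Cm489, Zm.16468.1.A1_at had 2.05 and 2.04 in F98908, against 2.04 and 2.06 in Cm489, and Zm.2055.2.S1_at had 1.69 and 1.69 in F98908, against 1.69 and 1.70 in Cm489. ZmAffx.361.1.S1_at had 2.16 and 2.16 in F98908, against 2.15 and 2.16 in Cm489. Their members were bright in F98908 on the other letter, so in these 4 clusters the signal was on 1 letter only at this level of background.

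The IDs also show how the members compare with the array. The letter A was carried by 46 members (71.9%) and by 61.0% of the probe sets with a cluster number. Only 1 member, ZmAffx.361.1.A1_at, has the ZmAffx prefix (1.56%), which 12.4% of those probe sets have. It had 8.23 and 8.07 in F98908, against 2.29 and 2.33 in Cm489. Types whose probes can match more than 1 transcript (suffixes a, s and x) made up 12 of the 64 members (18.8%) and 12.6% of all probe sets, with 7 of type a, 3 of type x and 2 of type s. These shares are given without a test.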

How the data were processed

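Each probe set has 1 deposited log2 value per array, which the authors obtained with GCRMA according to the submitters' processing notes, with no version stated. GCRMA corrects background from probe sequence, brings the arrays to a common distribution, which removes any difference in total output, and summarises each probe set. Of 17734 probe sets, 113 labelled AFFX were left out. No scanner file or detection call was used, and the number of arrays limits the precision. Limma 3.58.1 (R 4.3.3) fitted the difference F98908 minus Cm489 with lmFit and eBayes, two-sided, without a replicate block, and p-values were adjusted by Benjamini-Hochberg with a threshold of 0.05. The fit was also run on simulated data in which the arrays varied independently. That run does not cover the correlation between arrays given below. Members, limits and lists were chosen with earlier results of these data known. Probe sets were named by a rule: every member with a gene symbol, the 5 brightest, the 5 most and 5 least different between F98908 arrays, the 5 most different between Cm489 arrays, 3 on each side of each limit, clusters with several members, the 10 clusters with the brightest others and the 5 most different others. The remaining probe sets named here were chosen after their values were seen. Both gene numbers of the platform annotation matched RefSeq (Zm-B73-REFERENCE-NAM-5.0). No build is named for the values, so no positions are given. Alternatives covered the limits, filters, single arrays, probe set types, normalisation and replicate block.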

Additional observations from a re-analysis of the deposited data

How the results depend on the processing

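The number of probe sets bright only in F98908 (64) was 17 with limits of 3 and 9 and 161 with limits of 5 and 7. With single arrays left out it ran from 64 to 71. Of the other probe sets in the members' clusters, those at least 1 log2 unit higher (4) numbered 1 with the stricter limits, 17 with the looser ones and 1 without the types that can match several transcripts, and those at least 1 log2 unit lower (3) numbered 6 with the looser limits and 1 without those types. The other probe sets counted numbered 37, and 13 with the stricter limits, 95 with the looser ones and 15 without those types. With the stricter limits those at least 1 log2 unit lower were still 3. Why the counts moved was not tested. The median difference between the Cm489 arrays over the members was 0.138 with the looser limits. Members of the types that can match several transcripts (12) numbered 5 and 23 with the stricter and looser limits. Over the whole array, limma called 819 higher and 903 lower in F98908. The counts were 505 higher with a mean over log2 6, 248 higher and 170 lower with the F98908 arrays as 1 sample, and 257 to 543 higher and 176 to 536 lower with single arrays left out. With the replicate number as a block they were 409 higher and 371 lower. The differences between arrays of the 2 lines correlated at -0.365 across 11263 probe sets, and with the pairing crossed, an alternative added after seeing the data, the counts were 889 and 973. The cause was not tested. Members called ran from 57 to 64 of 64 in the fits that tested all of them. Without detection calls, signal over background is unknown, and under log2 4 no order can be read.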
